A study of Mus musculus with 6 samples.

Results

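Macrophage PPARγ regions that overlapped a region of PU.1, of C/EBPβ, or of both were examined for how far the centres of the regions lay from each other. They were chosen from the final list of macrophage PPARγ regions on the 19 autosomes, by an overlap of at least 1 bp with a region of either factor's list from the same cell type. This gave 1518 of 1924 autosomal regions, from a list of 1961 in all, and they are called partnered regions here. The other 406 autosomal regions overlapped neither factor.

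The lists came from ChIP-seq (chromatin immunoprecipitation followed by sequencing) of thioglycollate-elicited peritoneal macrophages of male C57BL/6 mice, unmodified animals whose cells were collected 3 days after 1 ml of 3% thioglycollate and adhered for 24 h. Cells of at least 4 animals were pooled for a sequencing run, 2 runs were joined for PPARγ, and PU.1 and C/EBPβ had 1 run each. Each target thus had 1 library and no replicate, so every interval below covers counting over regions only and the tests compare these lists, not replicated cell populations. H3K9Ace (acetylated histone H3 lysine 9) of the same macrophages, and PPARγ and H3K9Ace of differentiated 3T3-L1 adipocytes, a mouse cell line, served as readouts that played no part in choosing the regions. The libraries are named by their titles and antibody labels; the description field names PPARγ for all of them, and peak positions alone cannot settle which label is right.

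PPARγ is a nuclear receptor that binds DNA as a heterodimer with RXR and is the main regulator of fat cell differentiation; in macrophages it acts on lipid handling and inflammatory genes. PU.1 is an ETS-family factor needed for myeloid and B cell development, which binds and opens the enhancers of macrophages. C/EBPβ is a leucine-zipper factor found in both macrophages and adipocytes. Factors that share an enhancer are crosslinked to the same short stretch of chromatin, and ChIP-seq then gives a region for each, of which the files hold the start and end but no summit. The centre used here is the midpoint of a region, and an offset is the distance from the PPARγ centre to the nearest centre among the overlapping regions of a factor.

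PU.1 overlapped 1241 of the 1924 autosomal PPARγ regions, 64.5% (95% Wilson interval 62.3 to 66.6), and C/EBPβ overlapped 1168, 60.7% (58.5 to 62.9). Both factors were present at 891 regions, which is 58.7% of the partnered regions (56.2 to 61.1). PU.1 alone was present at 350 and C/EBPβ alone at 277. Partnered regions ranged from 142 to 1126 bp in width, with a median of 345.5 bp, and from 9 to 66 in PeakHeight, the authors' signal at the top of a region, with a median of 14. Regions with both factors had a median width of 370 bp (355 to 383), against 320 bp (297 to 334) with PU.1 alone, 305 bp (285 to 329) with C/EBPβ alone and 228 bp (217 to 237) with neither. The median PeakHeight was 14, 13, 14 and 10 in the same order. A wider region overlaps another more easily, and how much of these widths the choice by overlap sets was not tested.

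The centres of overlapping regions lay close together. The offset to PU.1 had a median of 59.5 bp (54.5 to 65.0, n = 1241), with a highest value of 535 bp, and that to C/EBPβ a median of 52.5 bp (49.0 to 57.0, n = 1168), with a highest value of 433.5 bp. These intervals are exact order-statistic intervals of the median. For PU.1 45.4% of offsets were at most 50 bp and 92.3% at most 200 bp. For C/EBPβ these shares were 48.4% and 94.8%. The overlap rule caps each offset at the mean of the widths of both regions, and the median offset was 16.1% of this largest possible value for PU.1 (14.8 to 17.2) and 14.3% for C/EBPβ (13.4 to 15.4).

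Most pairs of regions lay largely on top of each other. The PU.1 region covered a median of 81.1% of the PPARγ region and the C/EBPβ region a median of 86.7%. The PU.1 centre fell inside the PPARγ region in 89.9% of pairs and the C/EBPβ centre in 93.2%. The PPARγ region lay wholly inside the PU.1 region in 334 pairs and the reverse held in 297. For C/EBPβ these counts were 350 and 265.

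Neither factor had a detectable preference for one side along the chromosome. The PU.1 centre was at the higher coordinate in 604 regions and at the lower in 637, with a median signed offset of -2.5 bp (-8.0 to 3.5). C/EBPβ was at the higher coordinate in 562 and at the lower in 604, with a median of -2.5 bp (-7.0 to 1.0). The strand of the bound motifs is not in the files, so a fixed side relative to a motif was not tested. In steps of 25 bp the number of regions fell from 301 at 0 to 25 bp to 57 at 125 to 150 bp for PU.1, and from 327 to 68 for C/EBPβ.

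**Figure D1:**
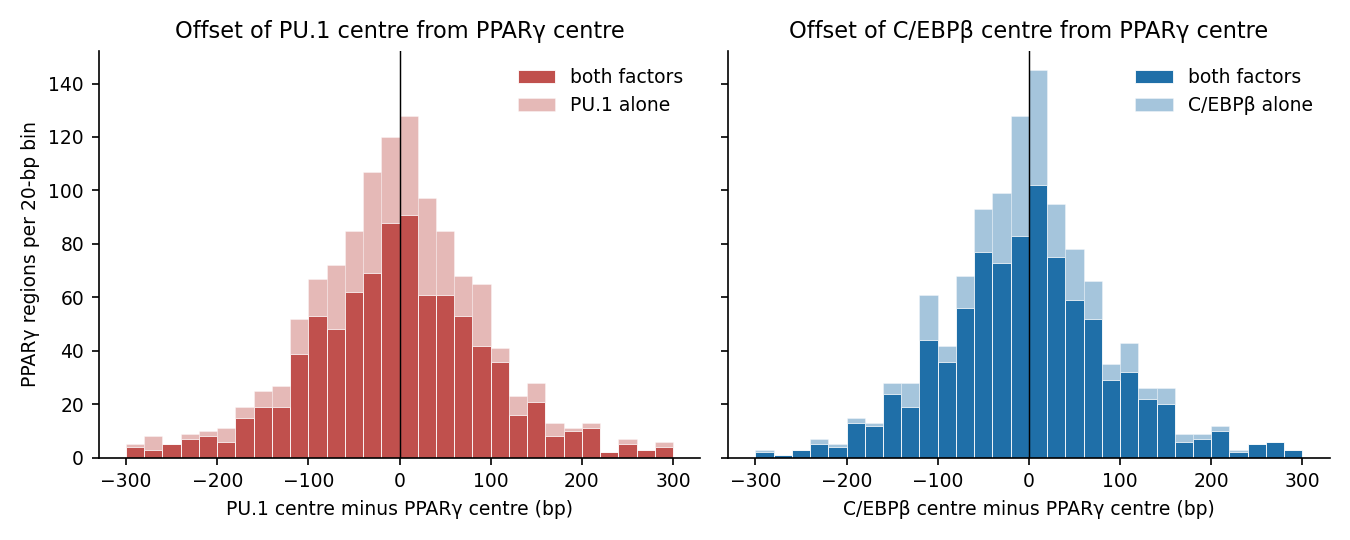
Histograms of the signed offset in bp (x axis) of the nearest overlapping PU.1 centre (left) and C/EBPβ centre (right) from the PPARγ centre, with the number of PPARγ regions per 20-bp bin (y axis). Dark bars are regions with both factors and light bars regions with that factor alone; 29 PU.1 and 13 C/EBPβ offsets beyond 300 bp are not drawn, and both histograms peak at 0 with similar left and right flanks.

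The nearest factor centre was also located for all 1924 autosomal regions without asking for overlap. Up to 200 bp every nearest centre belonged to an overlapping region, so these counts are those of the overlapping pairs. The nearest PU.1 centre lay within 50 bp in 564 regions, between 50 and 100 bp in 333 and between 500 and 1000 bp in 108. The nearest C/EBPβ centre lay within 50 bp in 565 regions, between 50 and 100 bp in 284 and between 500 and 1000 bp in 82. Only the nearest centre of each region is counted, so more distant centres near the same region are not in these numbers. Of the 406 regions with neither factor, 19 lay within 50 bp of a factor region's edge and 157 within 1000 bp, with a median gap of 1786.5 bp.

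At the limit of the rule the values were as follows. Regions were ranked by their largest overlap with either factor. The lowest values were 2 bp, on chromosome 7 at 100414181 to 100414359, and 4 bp, on chromosome 8 at 71941128 to 71941314. Both were overlaps with PU.1. The next 3 values of this ranking were 11, 14 and 15 bp. Just outside, the smallest gap was 1 bp to PU.1, on chromosome 10 at 44323942 to 44324187, followed by 5 bp to C/EBPβ, on chromosome 2 at 75413735 to 75413875. The next 3 gaps were 6, 7 and 12 bp. Only 18 of the 1518 partnered regions, 1.19%, had a largest overlap of at most 50 bp, so few sat near the limit for having any partner. The smaller overlap of a region with both factors is not in this ranking, so the count does not cover the split into classes. That split moved with the rule. With an overlap of at least 50% of the PPARγ region, both factors were present at 51.1% of partnered regions (48.5 to 53.7), against 58.7%.

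With both factors present, neither was nearer to PPARγ beyond counting error. PU.1 was nearer in 422 regions and C/EBPβ in 467, with 2 ties, so PU.1 was the nearer in 47.5% (44.2 to 50.8; 2-sided exact binomial test, p = 0.140). The median offsets in these 891 regions were 63.0 bp to PU.1 (57.0 to 67.5) and 56.5 bp to C/EBPβ (50.5 to 61.5). Within a region, the PU.1 offset exceeded the C/EBPβ offset by a median of 4.5 bp (-1.0 to 9.0). In 312 regions, 35.0%, the offsets differed by at most 25 bp. C/EBPβ was nearer by more than 50 bp in 191 regions and PU.1 in 148. With the authors' longer list of macrophage PPARγ regions in place of the final one, PU.1 was nearer in 1617 regions and C/EBPβ in 1797, 47.4% (45.7 to 49.0; 2-sided exact binomial test, p = 0.00218). The longer list includes the final one and had 3425 regions with both factors.

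The nearer factor moved with the width of the factor regions, a comparison added after the files were seen and given without a test. Where the PU.1 region was the wider of the pair, PU.1 was nearer in 41.9% of 422 regions (37.3 to 46.7). Where the C/EBPβ region was the wider, PU.1 was nearer in 52.4% of 466 (47.8 to 56.9). The share of regions with PU.1 nearer was 46.8% (42.9 to 50.7) with and 49.0% (43.0 to 55.1) without macrophage H3K9Ace, and 43.6% (34.0 to 53.7) with and 47.9% (44.5 to 51.4) without an adipocyte PPARγ region. Both pairs of intervals overlapped, and the differences were not tested.

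**Figure D2:**
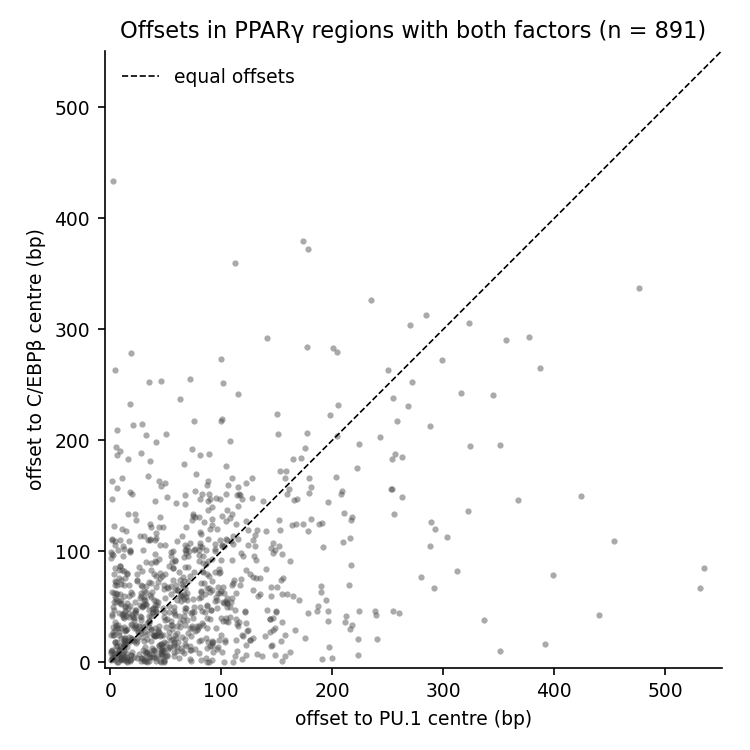
Each point is 1 of the 891 PPARγ regions with both factors, with its offset in bp to the PU.1 centre (x axis) and to the C/EBPβ centre (y axis), and the dashed line marks equal offsets. Points lie on both sides of the line, 422 with PU.1 nearer and 467 with C/EBPβ nearer, and most fall within 150 bp on both axes.

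Within these regions the PU.1 and C/EBPβ centres were a median of 50.5 bp apart (46.5 to 55.5), below the 63.0 bp between PPARγ and PU.1 and with an interval that overlaps that of the 56.5 bp between PPARγ and C/EBPβ. The PU.1 and C/EBPβ regions overlapped each other in 877 of the 891 cases. Both centres lay on the same side of the PPARγ centre in 614 regions, 69.0% (65.9 to 71.9), and on opposite sides in 276. Opposite sides means that PPARγ was the middle centre. With no preferred order each centre would be in the middle equally often, so most regions would show a shared side in any case. The signed offsets had a Spearman correlation of 0.46 over the 891 regions. The 2 offsets of a region are both measured from the same PPARγ centre, which by itself gives them a common part. The share with a common side and the correlation are thus descriptions only.

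By position along the chromosome, PPARγ was the middle centre in 31.0% of 889 regions (28.1 to 34.2), PU.1 in 32.2% (29.2 to 35.3) and C/EBPβ in 36.8% (33.7 to 40). The closest pair of the 3 centres was PU.1 with C/EBPβ in 324 regions, PPARγ with C/EBPβ in 302 and PPARγ with PU.1 in 262. No single order held in most regions, but the shares were not all equal. The interval for C/EBPβ in the middle lay just above an equal share. As closest pair, PU.1 with C/EBPβ had 36.5% (33.4 to 39.7), just above it. PPARγ with C/EBPβ had 34.0% (31.0 to 37.2), and PPARγ with PU.1 had 29.5% (26.6 to 32.6), below it. These departures were not tested. With the longer PPARγ list the share with PPARγ in the middle was 25.7% (24.2 to 27.2).

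All 3 centres lay within 100 bp of each other in 470 regions, 52.7%, and within 50 bp in 192. The median span was 94.5 bp (89.0 to 101) and the range 2 to 553.5 bp. Both offsets were at most 50 bp in 227 regions, whose median width was 320 bp and median PeakHeight 14. Both were over 100 bp in 127 regions, with a median width of 500 bp and PeakHeight of 15, and there PU.1 and C/EBPβ lay on the same side of PPARγ in 105 cases, a median of 52.0 bp apart. PU.1 was within 50 bp while C/EBPβ was over 100 bp away in 61 regions, and the reverse held in 79. Macrophage H3K9Ace was present at 65.2% of the first set (58.8 to 71.1) and 78.7% of the second (70.8 to 85.0), sets that also differ in width.

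The 5 regions with the smallest offsets to both factors had a PeakHeight from 10 to 19. On chromosome 1 at 153360029 to 153360583 the PU.1 centre was 0.5 bp and the C/EBPβ centre 2.0 bp from that of PPARγ, at a PeakHeight of 19. The region on chromosome 8 at 75251445 to 75251828 had offsets of 2.0 and 3.0 bp, and that on chromosome 15 at 67343796 to 67344053 had 2.5 and 3.5 bp. The other 2 of the 5 tightest, both on chromosome 2, had their larger offset at 4.5 bp, and the 4 regions after the first had a PeakHeight of 10 or 11.

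The 5 highest regions with both factors had PU.1 offsets from 19.5 to 102.5 bp and C/EBPβ offsets from 34.0 to 112 bp. The region with the largest PeakHeight, 66, on chromosome 18 at 4313904 to 4314445, had PU.1 102.5 bp and C/EBPβ 105 bp below its centre in coordinate, only 2.5 bp from each other. On chromosome 12 at 86274439 to 86275334 (PeakHeight 63) PU.1 lay 41.0 bp and C/EBPβ 112 bp to the same side. On chromosome 4 at 86142942 to 86143703 (62) the offsets were 39.5 and 80 bp, again to the same side. The factors shared a side in the other 2 as well, with offsets of 98.0 and 84.0 bp on chromosome 17 at 30765137 to 30765874 (59) and of 19.5 and 34.0 bp on chromosome 3 at 51297632 to 51298033 (58). In all 5 of these regions PU.1 or C/EBPβ was thus the middle centre, and 4 were acetylated in macrophages. The acetylated share was 70.6% over all regions with both factors and 58.7% over all autosomal PPARγ regions.

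Regions with a single factor had lower median offsets to that factor than regions with both, with intervals that overlapped for either factor, and the difference was not tested. With PU.1 alone the median was 48.25 bp (42.5 to 61.5), and with C/EBPβ alone it was 41.5 bp (33.0 to 51.5). With C/EBPβ alone 36.5% of offsets were at most 25 bp (31.0 to 42.3). Where PU.1 was also present, 26.2% of the C/EBPβ offsets were (23.4 to 29.1), an interval that did not overlap the former. For PU.1 these shares were 28.3% alone (23.8 to 33.2) and 23.2% with C/EBPβ (20.6 to 26.1), with intervals that overlapped. Pairs with a single factor were also narrower on both sides: the PU.1 regions had a median width of 307.5 bp when alone and 375 bp with C/EBPβ, and the C/EBPβ regions 316 bp and 390 bp. As a share of the largest possible offset, PU.1 gave 16.4% alone (14.1 to 18.1) and 16.1% with C/EBPβ (14.3 to 17.5), and C/EBPβ 13.0% alone (10.3 to 15.2) and 14.9% with PU.1 (13.7 to 15.7). On that scale the intervals overlapped as well.

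Single-factor regions of great height included close and distant pairs. With PU.1 alone, the 5 highest (PeakHeight 44 to 47) had offsets of 45.5 bp on chromosome 8 at 74497161 to 74497595, 166.5 bp on chromosome 3 at 90339924 to 90340431, and 8.0, 5.5 and 6.0 bp in the other 3. With C/EBPβ alone, the highest (58) lay on chromosome 17 at 24206537 to 24207004 with an offset of 79.5 bp. The next had 11.5 bp on chromosome 15 at 91007742 to 91008042 and 44.0 bp on chromosome 1 at 192931017 to 192931652. The fourth and the fifth had 11.5 bp on chromosome 9 at 61135699 to 61136036 and 145.5 bp on chromosome 5 at 75238640 to 75239345. All 5 with C/EBPβ alone were acetylated in macrophages, as were 2 of the 5 with PU.1 alone. Over the whole classes the shares were 57.4% with C/EBPβ alone and 51.7% with PU.1 alone, against 58.7% of all autosomal PPARγ regions. The contrast between these few regions was not tested.

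The width of the PPARγ region went with the offset. From the narrowest to the widest quartile of all autosomal PPARγ regions, the median PU.1 offset was 47.25, 43.0, 56.5 and 84.0 bp (interval of the last, 76.5 to 92.5), and the median C/EBPβ offset 39.0, 43.0, 52.0 and 75.5 bp (67.0 to 84.5). The widest quartile holds regions of 433 bp and more. The Spearman rank correlation between width and offset was 0.19 for PU.1 and 0.26 for C/EBPβ. Expressed as a percent of the largest possible offset, the rank correlation was near 0 for both, at -0.03 and 0.04, and the quartile medians ran from 14.3% to 18.7% for PU.1 and from 13.4% to 15.1% for C/EBPβ. In C/EBPβ-alone regions, however, the rank correlation with width was 0.38 in base pairs and 0.20 on the relative scale (n = 277). Among regions in the upper 50% by PeakHeight the relative rank correlation for C/EBPβ was 0.17.

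PeakHeight showed little relation to the offset within the final list, which holds no region with a PeakHeight below 9 or a fold below 5. Its rank correlation was 0.05 with the PU.1 offset and 0.02 with the C/EBPβ offset, and -0.07 and -0.08 with the relative offsets. Across quartiles of PeakHeight the PU.1 medians were 53.0, 58.75, 57.25 and 68.5 bp and the C/EBPβ medians 49.25, 49.5, 55.0 and 56.5 bp. Width and PeakHeight themselves had a rank correlation of 0.60 over the 1924 regions. Within quartiles of width, the higher regions had the smaller median offset in 7 of the 8 combinations of quartile and factor, for example 24.5 bp (14.0 to 39.0) against 47.0 bp (39.5 to 65.5) to C/EBPβ in the narrowest quartile, which was the only combination whose intervals did not overlap. With the longer list, whose median PeakHeight was 7, the rank correlation with height was negative, -0.13 for PU.1 and -0.16 for C/EBPβ.

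The authors' fold over control had at most a weak negative relation to the offset. With fold rising by quartile, the median PU.1 offset was 67.5, 62.5, 55.75 and 55.0 bp and the C/EBPβ offset 56.75, 57.25, 56.5 and 45.25 bp. The C/EBPβ median in the highest quartile, 45.25 bp (38.0 to 50.5), was the lowest of the 4, and its interval overlapped those of the other 3. The rank correlation between fold and offset was -0.06 for PU.1 and -0.10 for C/EBPβ, small values that rest on points from the same 3 libraries.

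**Figure D3:**
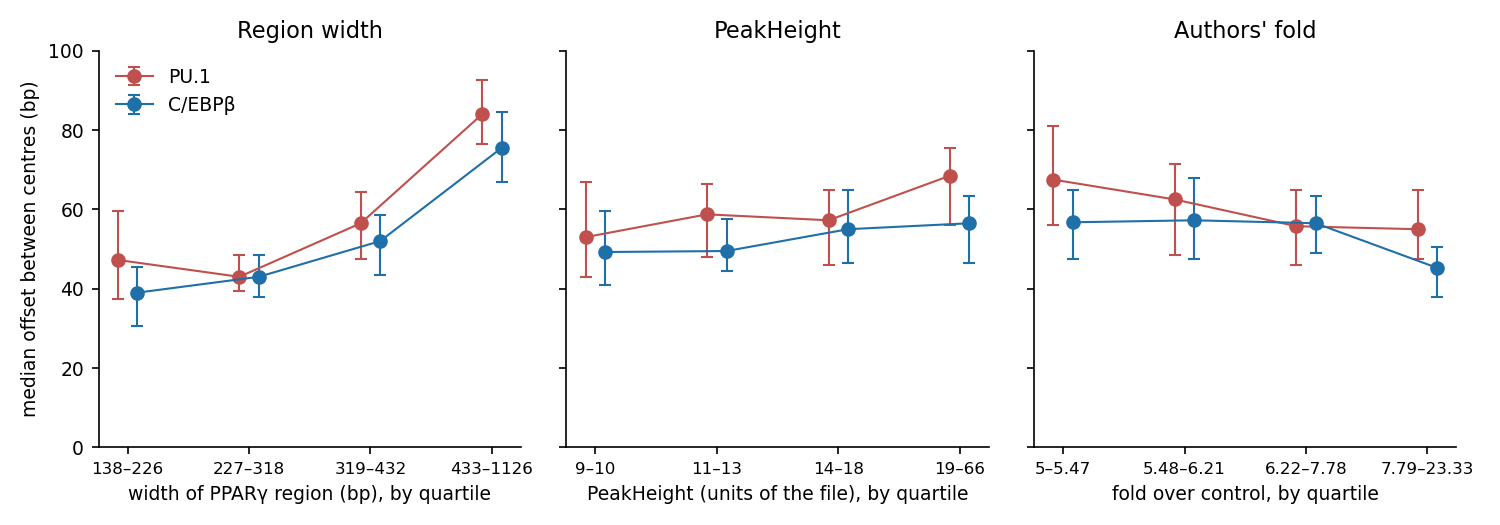
Median offset in bp (y axis) of PU.1 (red) and C/EBPβ (blue) centres by quartile of PPARγ region width, PeakHeight and the authors' fold (x axes, with the range of each quartile), with exact 95% intervals of the median. Both medians are highest in the widest quartile, 84.0 and 75.5 bp, while PeakHeight moves them little and the lowest C/EBPβ median by fold, 45.25 bp, is in the highest quartile.

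How often a PPARγ region had a partner at all rose with both width and height. The share overlapping either factor was 58.6% in the narrowest quartile, then 75.9%, 87.3% and 94.0% in the widest. By PeakHeight it was 60.8%, 80.4%, 84.8% and 93.5%. Both factors were found in 45.9% of the partnered regions of the narrowest quartile (40.2 to 51.8) and in 71.2% of those of the widest (66.8 to 75.2). By PeakHeight the corresponding shares were 53.9% (48.5 to 59.2) and 63.3% (58.6 to 67.7). A wider region overlaps another more easily, and the higher regions were also wider. The median width was 220 bp in the lowest quartile of PeakHeight and 442 bp in the highest. These shares were not split by both width and height.

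Most partnered regions held at most 1 region of each factor. A single factor region was found in 614, and 818 had 1 of each. At least 2 regions of the same factor lay in 86 partnered regions, 5.67% (4.61 to 6.94), which were 56 for PU.1 and 38 for C/EBPβ, with 8 counted in both. These 86 had a median width of 548 bp (485 to 593), against 337.5 bp (328 to 347) in the other partnered regions, while the median PeakHeight was 15 (14 to 17) against 14 (13 to 14). By width quartile the share with repeated factor regions was 1.41%, 1.91%, 3.83% and 13.1% (10.3 to 16.5). By PeakHeight it was 4.49%, 4.03%, 7.00% and 6.98%, with overlapping intervals.

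**Figure D4:**
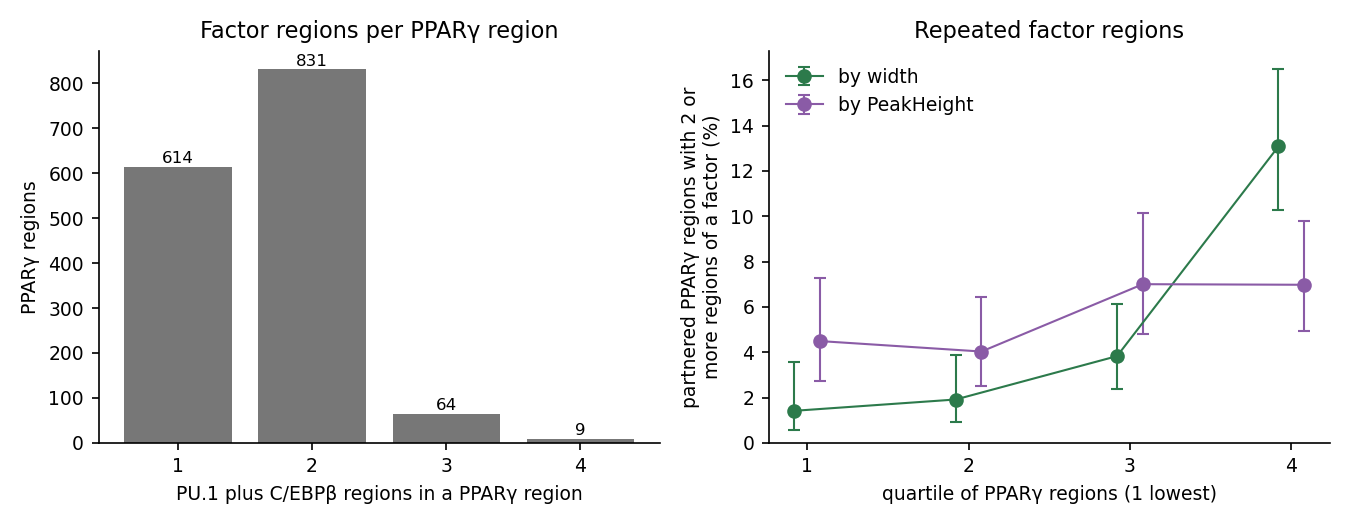
Left, number of PPARγ regions (y axis) by the total of PU.1 and C/EBPβ regions they overlap (x axis). Right, percent of partnered regions with at least 2 regions of 1 factor (y axis, 95% Wilson intervals) by quartile of width and of PeakHeight (x axis), which reaches 13.1% in the widest quartile and 6.98% in the highest.

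Where regions of a factor were repeated, the PPARγ centre mostly lay between them. In the 56 PPARγ regions with several PU.1 regions, neighbouring PU.1 centres were a median of 365 bp apart (323 to 426, range 183.5 to 707), and the PPARγ centre lay between the outermost in 50, 89.3% (78.5 to 95). In the 38 with several C/EBPβ regions the spacing was 405.75 bp (359 to 466), with PPARγ in between in 35, 92.1% (79.2 to 97.3). The nearest PU.1 centre was a median of 98.75 bp away in the former (76.0 to 122) and the nearest C/EBPβ centre 120.25 bp in the latter (77.5 to 149.5). Both values lie above the medians over all partnered regions. Their intervals overlap those of the widest quartile of PPARγ regions, at 84.0 bp (76.5 to 92.5) and 75.5 bp (67.0 to 84.5). A region that overlaps several others of a kind must reach out to each, so a position between them is partly set by the rule. The reverse case was rare: 11 PU.1 regions and 6 C/EBPβ regions each touched 2 PPARγ regions.

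The highest total was 4 factor regions, in 9 PPARγ regions. Of the 5 highest of these, the region on chromosome 13 at 41477586 to 41478491 (PeakHeight 43) had 2 of each factor, with the nearest PU.1 centre 256.5 bp and the nearest C/EBPβ centre 187.5 bp away. On chromosome 8 at 11463748 to 11464677 (31) there were also 2 of each, the nearest at 99.5 and 273 bp. On chromosome 16 at 24967897 to 24968871 (25) there were 3 PU.1 regions and 1 C/EBPβ region, the nearest at 18.0 and 101.5 bp. The remaining 2, on chromosome 11 at 83409154 to 83410103 and on chromosome 16 at 44910267 to 44911036, had a PeakHeight of 20 and 2 regions of each factor, none with its centre within 150 bp of that of PPARγ. All 5 were acetylated in macrophages and none overlapped an adipocyte PPARγ region. Over all autosomal PPARγ regions these overlaps were found in 58.7% and 11.1%. In the widest quartile, which includes all 5, 79.4% of regions with both factors were acetylated.

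Acetylation and PPARγ in adipocytes were not used to choose the regions. Macrophage H3K9Ace overlapped 969 of the 1518 partnered regions, 63.8% (61.4 to 66.2), against 58.7% of all autosomal PPARγ regions and 39.7% of the 406 without a partner (35.0 to 44.5). It was present at 70.6% of regions with both factors (629 of 891, 67.5 to 73.5), 51.7% with PU.1 alone (181 of 350, 46.5 to 56.9) and 57.4% with C/EBPβ alone (159 of 277, 51.5 to 63.1). The odds were 2.24 times higher with both factors than with PU.1 alone (1.72 to 2.91; 2-sided Fisher's exact test, adjusted p = 2.67e-09) and 1.78 times higher than with C/EBPβ alone (1.33 to 2.37; adjusted p = 0.000156, Benjamini-Hochberg over 9 tests). The odds with PU.1 alone were 0.795 times those with C/EBPβ alone (interval 0.571 to 1.11; adjusted p = 0.170 by Fisher's exact test), a comparison that passed the threshold with centres within 250 bp as the criterion, at 0.698, and with the longer list, at 0.787.

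Regions with both factors were also the wider ones. Within each quartile of width the share with macrophage H3K9Ace was higher with both factors than with either alone, but most intervals overlapped. In the narrowest quartile it was 63.1% (54.5 to 70.9) against 41.9% (PU.1, 32.0 to 52.4) and 34.3% (C/EBPβ, 24.1 to 46.3). In the second it was 62.4% against 48.9% and 55.6%, and in the widest 79.4% against 67.1% and 75%. In the third quartile it was 69.5% against 51.9% and 66.7%. Only in the narrowest quartile did the interval with both factors lie clear of that with C/EBPβ alone. It lay clear of that with PU.1 alone in the narrowest and the third. The differences within quartiles were not tested.

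Adipocyte PPARγ differed most between the classes. It overlapped 172 partnered regions, 11.3% (9.83 to 13.0), against 11.1% of all autosomal macrophage PPARγ regions, so that partnered regions as a whole were close to the background. C/EBPβ-alone regions had it in 22.7% (63 of 277, 18.2 to 28.0), regions with both factors in 10.5% (94 of 891, 8.70 to 12.7) and PU.1-alone regions in 4.29% (15 of 350, 2.61 to 6.95). With PU.1 alone the odds were 0.152 times those with C/EBPβ alone (interval 0.0786 to 0.279; adjusted p = 2.31e-11 by Fisher's exact test). Both factors against C/EBPβ alone gave 0.401 (interval 0.278 to 0.581; adjusted p = 2.71e-06 by Fisher's exact test) and against PU.1 alone 2.63 (interval 1.49 to 4.96; adjusted p = 0.000570). The order of the 3 classes was the same in each quartile of width, but few PU.1-alone regions had it there. They were 2 of 86, 4 of 88, 2 of 106 and 7 of 70 from the narrowest quartile to the widest. In every quartile the intervals of PU.1 alone and both factors overlapped, while those of PU.1 alone and C/EBPβ alone did not.

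Adipocyte H3K9Ace overlapped 36.8% of partnered regions, against 36.1% of all autosomal ones. It was present at 37.5% with both factors, 30.3% with PU.1 alone and 42.6% with C/EBPβ alone. PU.1 alone against C/EBPβ alone gave an odds ratio of 0.585 (interval 0.415 to 0.825; adjusted p = 0.00281 by Fisher's exact test), which did not pass in the upper 50% by fold, at 0.673 (adjusted p = 0.112). Both factors against C/EBPβ alone gave 0.808 (interval 0.609 to 1.07; adjusted p = 0.155 by Fisher's exact test), which passed with the longer list, at 0.642, and with an overlap of at least 50% of the PPARγ region, at 0.730. Both factors against PU.1 alone gave 1.38 (interval 1.05 to 1.82; adjusted p = 0.0227 by Fisher's exact test). The latter did not hold: it turned to 0.968 with the longer list, and with an overlap of at least 50% of the PPARγ region it was 1.19 (adjusted p = 0.217 by Fisher's exact test).

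Offsets were smaller where the chromatin was not acetylated. The C/EBPβ median was 39.5 bp (33.5 to 45) at regions without and 59.5 bp (54.0 to 65.0) at regions with macrophage H3K9Ace, and the PU.1 median 48.5 bp (43.5 to 57.5) and 64.75 bp (59.0 to 69.5). The regions without the mark were narrower, with median widths of 307 against 375.5 bp for those with C/EBPβ and 315 against 373.5 bp for those with PU.1. On the relative scale the C/EBPβ values were 12.6% (10.9 to 14.2) and 15.0% (14.0 to 16.4), and the PU.1 values 15.1% (13.6 to 17.4) and 16.6% (14.9 to 17.9), with intervals that overlap.

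Distances between other overlapping regions of these lists put the offsets in scale. Where a partnered region was also bound by PPARγ in adipocytes, the PPARγ centres of the cell types were a median of 44.75 bp apart (36.5 to 55.5, n = 172). In the regions shared with adipocytes, the median PU.1 offset was 75 bp (56.0 to 86.5, n = 109), with an interval that starts just above the end of that one. The median C/EBPβ offset was 59.5 bp (50 to 76.0, n = 157), with an interval that overlapped it. As a share of the largest possible offset, PU.1 gave 18.5% (14.6 to 21.6) and the PPARγ centres of the cell types 13.0% (11.8 to 15.5). On that scale these intervals overlapped. At sites without PPARγ, the nearest PU.1 centre lay 44.0 bp from an overlapping C/EBPβ centre (43.0 to 45, n = 11953), and at sites with PPARγ 50 bp (46.0 to 54.5, n = 903). Among C/EBPβ regions of at least 300 bp these values were 54.5 bp and 54.0 bp. Factor regions touching PPARγ were wider than the rest, at a median of 351 against 237 bp for PU.1 and 373 against 271 bp for C/EBPβ. Wider regions overlap others more easily, and how much of this difference the choice by overlap sets was not tested.

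Weaker macrophage PPARγ regions lay further from both factors. The longer list holds 16120 autosomal regions outside the final list and off the masked intervals, with a median PeakHeight of 7. Of these, 33.9% had a partner (33.2 to 34.7), against 78.9% in the final list (77.0 to 80.7). Their median offsets were 87.5 bp to PU.1 (84.5 to 91.0) and 82.5 bp to C/EBPβ (78.5 to 86.0), although their regions were narrower, with a median width of 206 bp. As a share of the largest possible offset these were 27.8% (26.8 to 28.6) and 24.6% (23.8 to 25.7), against 16.1% and 14.3% in the final list.

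Adipocyte PPARγ regions that overlapped a macrophage factor but no macrophage PPARγ region differed by factor. Their PU.1 offset had a median of 103.5 bp (81.0 to 120.5, n = 144), or 36.2% of the largest possible (28.8 to 42.0), and their C/EBPβ offset 47.0 bp (39.0 to 54.0, n = 221), or 16.9% (13.6 to 19.4). The PU.1 interval lies above that of macrophage PPARγ, while the C/EBPβ interval overlaps it. These values compare libraries of different cell types.

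**Figure D5:**
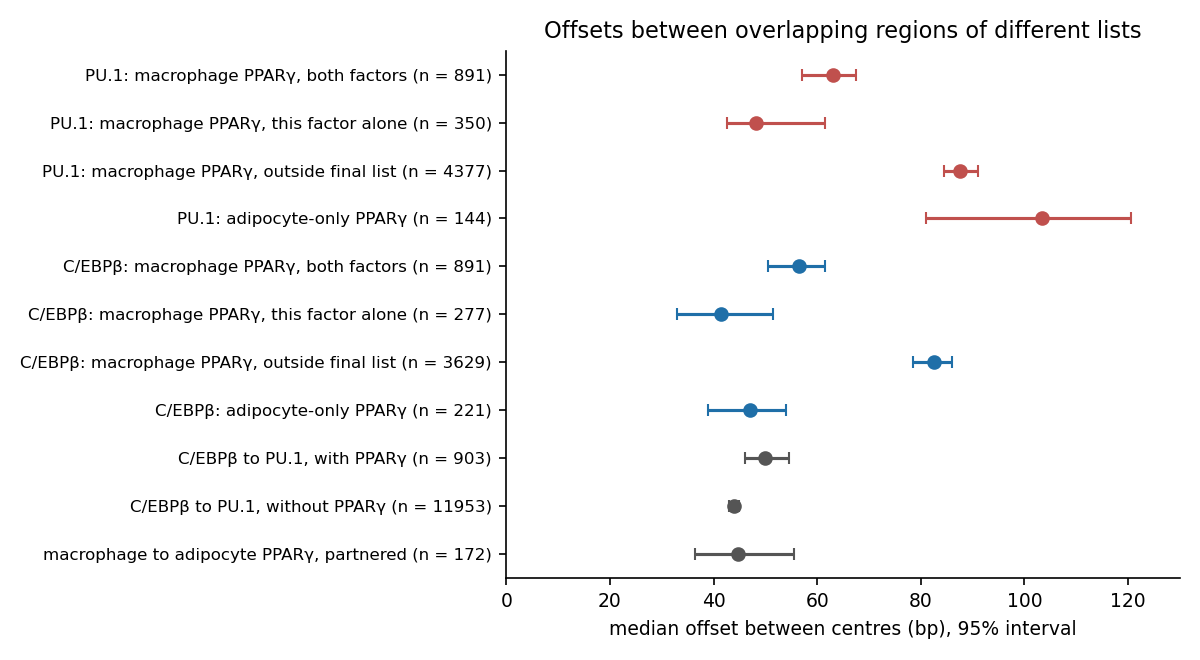
Median offset in bp between the centres of overlapping regions (x axis), with exact 95% intervals, for PU.1 (red) and C/EBPβ (blue) at macrophage PPARγ regions of the final list, at those outside it and at adipocyte-only PPARγ regions, and for other pairs of lists (grey). Final-list medians lie between 41.5 and 63.0 bp, and the highest median, 103.5 bp, is that of PU.1 at adipocyte-only regions.

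Spacing varied moderately over the chromosomes. Each autosome held between 33 (chromosome 18) and 131 (chromosome 2) partnered regions. The share of PPARγ regions with a partner ranged from 69.4% on chromosome 13 to 88.7% on chromosome 14. The median PU.1 offset ranged from 40 bp on chromosome 11 to 73.5 bp on chromosome 9, and the median C/EBPβ offset from 23.25 bp on chromosome 18 to 67.5 bp on chromosome 4. These values rest on few regions each, and differences between chromosomes were not tested.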

How the data were processed

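Per the labels' protocols, the authors aligned 36-bp reads with ELAND to mouse build mm8, keeping reads with 1 best place and at most 2 mismatches. For the peak calling settings and the control behind the fold, nothing is stated in the labels used here. A deposited mask of biased input intervals had been applied to the final lists, per the series design. The deposited files give positions, and for PPARγ a fold (a ratio to control), a PeakHeight (signal in whole units, no depth scaling stated) and a false discovery rate in percent, per the file headers. Read depth is unknown. Positions are printed as deposited.

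Overlaps, midpoints and offsets were computed with Python 3.11.15, pandas 2.3.3 and scipy 1.17.1, and checked on simulated regions of known spacing. Medians carry exact binomial order-statistic intervals and shares Wilson intervals, both at 95%. Quartiles were cut on all 1924 autosomal PPARγ regions. Fisher's exact tests were adjusted over 9 comparisons. Rank correlations carry no p. The regions, lists and tests were chosen with earlier results of these data known. Regions named singly were the 5 of greatest PeakHeight in each class, the 5 with both factors nearest, the 5 with most factor regions (ties by PeakHeight) and those just inside and outside the overlap limit. Alternatives used the longer PPARγ list off the masked intervals, other overlap criteria, upper 50% subsets and the sex chromosomes. Sequences, motifs and gene annotation of mm8 were not used here. The 20 repeated entries of the adipocyte H3K9Ace list were counted once.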

Additional observations from a re-analysis of the deposited data

How the results depend on the processing

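Each group is 1 library, so no value has a replicate check, no library could be left out, and region midpoints stand in for binding positions. Keeping the sex chromosomes changed no direction or call in the 25 results it was run on. Taking the region of largest overlap, or only regions with exactly 1 partner of a kind, was run on the median offsets and the nearer factor alone, and the relative offset and both centres within 150 bp on the nearer factor alone, with no change of direction or call there. With the longer list the PU.1 share was 31.1% and the C/EBPβ share 26.6%, both factors 49.0% of partnered regions, the median offsets 81.0 and 73.5 bp, PPARγ in the middle 25.7% and PU.1 nearer 47.4% (past the threshold). In it the rank correlation with width was 0.0627 (PU.1) and 0.101 (C/EBPβ), relative -0.167 and -0.119, and with PeakHeight -0.133 and -0.162, relative -0.249 and -0.264. Its odds ratios for adipocyte H3K9Ace were 0.642 (both over C/EBPβ alone, now past the threshold) and 0.968 (both over PU.1 alone, turned around), and for macrophage H3K9Ace 0.787 (PU.1 alone over C/EBPβ alone, now past it). An overlap of at least 50% of the PPARγ region gave shares of 55.4% and 54.4%, both factors 51.1%, offsets of 50 and 46.8 bp and 0% with repeated factor regions, since separate regions cannot each cover that much of 1 region; for adipocyte H3K9Ace it gave 0.730 (both over C/EBPβ alone, now past the threshold) and 1.19 (both over PU.1 alone, lost). Centres within 250 bp gave 61.4% with PU.1, 55.8% with both, 2.42% with repeats and 0.698 for macrophage H3K9Ace, PU.1 alone over C/EBPβ alone. The upper 50% by PeakHeight gave 73.2% and 71.2%, both factors 61.6%, repeats 6.99%, rank correlation with width 0.299 and 0.367, relative 0.0832 and 0.172. The upper 50% by fold gave 69.8% and 67.8%, rank correlation with width 0.356 (C/EBPβ), relative 0.0308 and 0.149, and adipocyte H3K9Ace ratios of 0.673 (PU.1 alone over C/EBPβ alone) and 1.48 (both over PU.1 alone), both lost. Motif content was planned and not run. Where not stated, the cause was not tested.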

Other observations

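On chromosome X, outside the set described, 23 macrophage PPARγ regions included 5 with PU.1, at a median offset of 52.0 bp, and 4 with C/EBPβ, at 212 bp. Chromosome Y held 14 PPARγ regions, none with a factor.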
